A study of Mus musculus with 18 samples.

Results

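The response of the mouse retina to N-acetylcysteine ethyl ester (NACET) was compared between diabetic Akita and wild-type (WT) males, as the difference of 2 treatment effects: the change with NACET in Akita minus the change with NACET in WT. All 18 RNA-seq libraries of the series entered this comparison, with 3 libraries of WT, 6 of WT + NACET, 4 of Akita and 5 of Akita + NACET, and 16183 genes were tested. Akita mice (C57BL/6-Ins2Akita/J) are heterozygous for a dominant mutation of Ins2, 1 of the 2 mouse insulin genes. The mutation damages the pancreatic beta cell and leads to diabetes of the whole animal. Whether the genotype acts on the retina only through the diabetes was not tested. WT males were C57BL/6J. Treated mice drank water with 0.33 mg/mL NACET, a daily intake of 50 mg/kg, from 4 to 24 weeks of age, and the untreated mice of either genotype received water as the vehicle. Below, a positive interaction means that the NACET effect was higher in Akita than in WT, and a negative interaction that it was lower.

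NACET is a cell-permeable ester of N-acetylcysteine that raises intracellular cysteine and, through it, glutathione. Modification of cysteines of KEAP1, the adaptor that sends the transcription factor NRF2 to the proteasome, lets NRF2 accumulate and switch on antioxidant and detoxifying genes. The retina that receives the drug is mostly rods by cell number, with cones, bipolar, horizontal, amacrine and ganglion cells, Müller glia and vessels making up the rest. An interaction of genotype and treatment asks whether diabetic and healthy tissue answer the drug alike, and the classes of interest here are the genes that differed one way with NACET in Akita and the other way in WT.

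The libraries held between 11495596 and 17814479 reads counted in genes. The rod genes Gnat1 and Sag, which mark the tissue as retina, measured 8426 to 24551 and 6747 to 13358 CPM (counts scaled to the TMM-adjusted library size). Ins2 itself had 0 to 9 reads per library and cannot check the genotype here. Of the reads with a unique alignment, the share in no annotated exon (the outside-exon share) was 11.5% ± 1.83 (SD, n = 4) in Akita and 16.4% ± 2.11 (n = 5) in Akita + NACET, without overlap (two-sided exact permutation p = 0.00794, adjusted p = 0.0794 over 10 tests). In WT it went the other way, from 16.3% ± 1.24 (n = 3) to 12.7% ± 2.74 with NACET (n = 6, exact permutation p = 0.0476, adjusted p = 0.238). This measure of the reads therefore had the same crossed shape as the genes described next, and its values are given beside them. The summed lens crystallin genes reached 30085 CPM in WT + NACET library 5, 3521 in Akita library 2 and 1564 in Akita + NACET library 3, against 41.5 to 453 CPM in the other 15. The sources used here do not say that each library is 1 mouse, so p-values measure the spread between these libraries, which may be technical.

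The NACET effect differed between the genotypes for 3289 of the 16183 genes tested (20.3%, edgeR quasi-likelihood test, Benjamini-Hochberg adjusted p at most 0.05). Of these, 1640 had a positive interaction (10.1% of genes tested) and 1649 a negative one (10.2%), and 864 passed the test with a difference of more than 2-fold. The median interaction over all tested genes was 0.0042 on the log2 scale. Within Akita alone, 1562 genes differed with NACET (9.65%; 730 or 4.51% up and 832 or 5.14% down), and within WT alone 240 genes (1.48%; 139 or 0.859% up and 101 or 0.624% down).

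Nearly all genes with an interaction had estimates of opposite sign in the 2 genotypes: 3243 of 3289, against 70.1% of all tested genes (35.8% up in Akita and down in WT by sign alone, 34.2% the reverse), a description, since an interaction is itself the difference of the 2 effects. Of the 3289, 63 (0.389% of tested genes) had both effects called in opposite directions, 30 up in Akita and down in WT (0.185%) and 33 down in Akita and up in WT (0.204%). Another 1271 passed the test in Akita alone, 160 in WT alone, and 1793 in neither, so for most of the 3289 the data show that the 2 effects differ without showing that each is different from 0. Csrp3 and Xlr3b, chosen here after their values were seen, are the 2 genes with both effects called in the same direction. In the group means, WT and Akita + NACET lay together on one side, and Akita and WT + NACET on the other, for 1588 of the 1640 positive and 1540 of the 1649 negative interactions (52.6% of all tested genes). This arrangement is part of what the interaction test selects, and is given as a description.

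These counts depend on a few libraries and on the outside-exon share. The interaction count was 1699 without WT library 1 and 1730 without WT library 2, of 3 in that group, and 1670 and 1675 of those were among the 3289. Within Akita, the count of 1562 was 1 without Akita library 4, 808 without library 1 and 992 without library 3, and 425, 872 and 101 without Akita + NACET libraries 2, 4 and 5. Within WT, the count of 240 was 72 and 77 without WT libraries 1 and 2, 110 and 153 without WT + NACET libraries 3 and 5, and 423 and 461 without Akita library 4 and Akita + NACET library 5, which share in the estimate of the spread. The 63 genes called in both became 1 without Akita library 4, 24 without Akita library 1, 11 and 7 without WT libraries 1 and 2, and 25, 29 and 14 without Akita + NACET libraries 2, 4 and 5. It was 23, 29 and 40 without WT + NACET libraries 3, 5 and 6, and 96 without WT + NACET library 2. With the outside-exon share as a covariate, the counts were 0 in Akita, 61 in WT and 0 in both. The interaction kept 17 calls with it, all among the 3289, with 8 positive and 9 negative. On total counts alone the split of the interaction calls moved to 4047 positive and 390 negative, with the median of all genes at 0.30, so levels below are relative to the TMM scale, on which that median is close to 0.

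**Figure D1:**
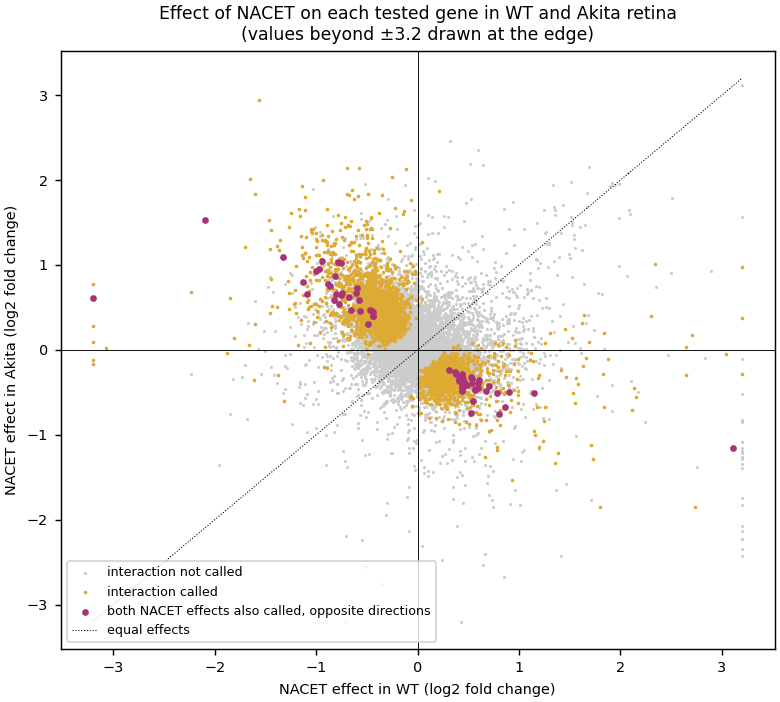
The NACET effect in WT (x axis) and in Akita (y axis), both as log2 fold change with against without NACET, for each tested gene. Yellow points are genes with a called interaction, which sit mostly in the upper left and lower right parts of the plot (3243 of 3289 have opposite signs), and purple points are the 63 genes with both effects also called.

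Of the 63 genes, 49 had no overlap between treated and untreated libraries in either genotype. Over all tested genes this held for 398 (2.46%). The genes described here were taken from the 49, so their lack of overlap is fixed by that choice. Among the 30 genes higher with NACET in Akita and lower in WT, the 6 with the largest interaction were Csmd1, Trank1, Cntfr, Pisd-ps1, Elfn2 and Rasd2. Cntfr (mm9 chromosome 4, 41604529 to 41644121, minus strand) encodes the receptor subunit that binds ciliary neurotrophic factor, a survival factor for retinal neurons. It measured 21.04, 21.7 and 13.6 CPM in the 3 WT libraries and ranged from 8.19 to 12.3 with a median of 8.95 in WT + NACET. The 4 Akita libraries gave 9.89, 9.96, 7.35 and 11.3 CPM and the 5 of Akita + NACET 18.6, 13.6, 13.7, 17.8 and 29.6 CPM. The level rose with NACET in Akita (log2 0.96, adjusted p = 0.02) and fell in WT (log2 -0.97, adjusted p = 0.026), an interaction of 1.93 ± 0.30 (log2 ± SE, adjusted p = 0.0014).

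Elfn2 (mm9 chromosome 15, 78500452 to 78548543, minus strand), a leucine-rich repeat protein of synapses, measured 12.8, 17.5 and 10.3 CPM in WT and 9.05, 9.26, 6.405 and 10.3 CPM in Akita. With NACET it ranged from 4.397 to 8.79 with a median of 6.39 in WT and read 14.3, 13.1, 11.2, 13.5 and 16.8 CPM in Akita. The highest level was that of WT library 2, and the interaction was 1.75 ± 0.28 (adjusted p = 0.0015). Rasd2 (mm9 chromosome 8, 77737843 to 77748012, plus strand), a small GTPase known as Rhes, measured 26.4, 16.7 and 16.6 CPM in WT, 7.71, 10.3, 12.6 and 6.797 in Akita and 19.8, 12.9, 18, 15.2 and 19.98 in Akita + NACET. In WT + NACET it ranged from 8.41 to 13.96 with a median of 11.2. Its highest treated Akita library reached the level of WT, and its interaction was 1.69 ± 0.28 (adjusted p = 0.0018).

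The largest interaction of the 6 was that of Csmd1 (mm9 chromosome 8, 15892537 to 17535586, minus strand), a large membrane protein that inhibits complement, at 2.42 ± 0.44 (adjusted p = 0.0026). Its levels were low: 2.87, 4.16 and 3.19 CPM in WT, 1.82, 1.51, 1.44 and 1.08 in Akita, 2.21, 3.18, 2.55, 3.04 and 4.77 in Akita + NACET, and from 0.531 to 2.36 with a median of 1.33 in WT + NACET. The library kit does not mark strand, and AC122323.1, Gm16346, Gm16347 and SNORA17 overlap the gene on one strand or the other, so their reads cannot be told apart from those of Csmd1. Trank1 (mm9 chromosome 9, 111214243 to 111298278, plus strand) had an interaction of 1.99 ± 0.33 (adjusted p = 0.0019), from 15.8 ± 2.58 CPM in WT, 8.19 ± 2.41 in WT + NACET, 6.23 ± 1.14 in Akita and 12.9 ± 4.07 in Akita + NACET (mean ± SD). Pisd-ps1 (mm9 chromosome 11, 3025907 to 3031007, plus strand), a pseudogene of phosphatidylserine decarboxylase whose reads may be shared with its parent gene, had 1.77 ± 0.24 (adjusted p = 0.00043), with 17.4, 18.1, 18.02 and 16.6 CPM in Akita against 28.8, 37.2, 30.4, 31.9 and 49.4 in Akita + NACET. In WT it read 29.01, 32.9 and 25.7 CPM without NACET and from 12.6 to 23.4 with a median of 16.1 with it.

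In the other direction, down in Akita and up in WT, the 6 were Sh3yl1, Ubxn10, Fbxo36, Dlg4, Nxnl1 and Thg1l. Nxnl1 (mm9 chromosome 8, 74084455 to 74090548, minus strand) encodes rod-derived cone viability factor, a thioredoxin-like protein through which rods sustain cones. It measured 281, 294 and 335 CPM in WT and ranged from 409 to 514 with a median of 419 in WT + NACET. Akita libraries gave 376, 352, 384 and 542 CPM and Akita + NACET libraries 297, 276, 275, 282 and 233 CPM. Akita library 4 stood well above the other Akita libraries, and the interaction was -1.15 ± 0.17 (adjusted p = 0.00085).

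Dlg4 (mm9 chromosome 11, 69830587 to 69859034, plus strand) encodes PSD-95, the scaffold of glutamatergic synapses, which in the retina is also abundant in photoreceptor terminals. Its level was 279, 244 and 262 CPM in WT and ranged from 331 to 411 with a median of 375 in WT + NACET. In Akita it was 373, 343, 387 and 546 CPM, and in Akita + NACET 237, 240.4, 252, 264 and 238 CPM. It was lower with NACET in Akita (log2 -0.74, adjusted p = 0.01) and higher in WT (log2 0.52, adjusted p = 0.029), with an interaction of -1.26 ± 0.16 (adjusted p = 0.00021), and it was opposite in sign to the other 14 postsynaptic genes with an interaction.

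Ubxn10 (mm9 chromosome 4, 138265752 to 138293082, minus strand), a cofactor of the ATPase VCP, had an interaction of -1.39 ± 0.21 (adjusted p = 0.00072), from 4.71 ± 0.534 CPM in WT, 8.81 ± 0.881 in WT + NACET, 7.07 ± 1.303 in Akita and 5.0 ± 0.469 in Akita + NACET, and overlaps Pla2g2c on the other strand. Fbxo36 (mm9 chromosome 1, 84836416 to 84897062, plus strand), an F-box protein, had -1.30 ± 0.18 (adjusted p = 0.00045), from 10.1 ± 1.41 CPM in WT, 17.4 ± 1.68 in WT + NACET, 13.9 ± 1.57 in Akita and 9.75 ± 1.18 in Akita + NACET. Thg1l (mm9 chromosome 11, 45760345 to 45768996, minus strand), which adds a guanosine to histidine tRNA, had -1.13 ± 0.17 (adjusted p = 0.00072), and Sh3yl1 (mm9 chromosome 12, 31596533 to 31645027, plus strand), an SH3 domain protein, -1.65 ± 0.19 (adjusted p = 7.0e-05). Sh3yl1 measured 41.4, 39.4 and 48.4 CPM in WT and ranged from 87.9 to 115 with a median of 93.2 in WT + NACET, against 60.2, 60.7, 61.6 and 78.5 in Akita and 58.4, 46.4, 49.3, 44.2 and 31.9 in Akita + NACET. The WT + NACET libraries of these 2 genes were above all of the other 12 libraries, a feature shared with the genes taken up further on.

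**Figure D2:**
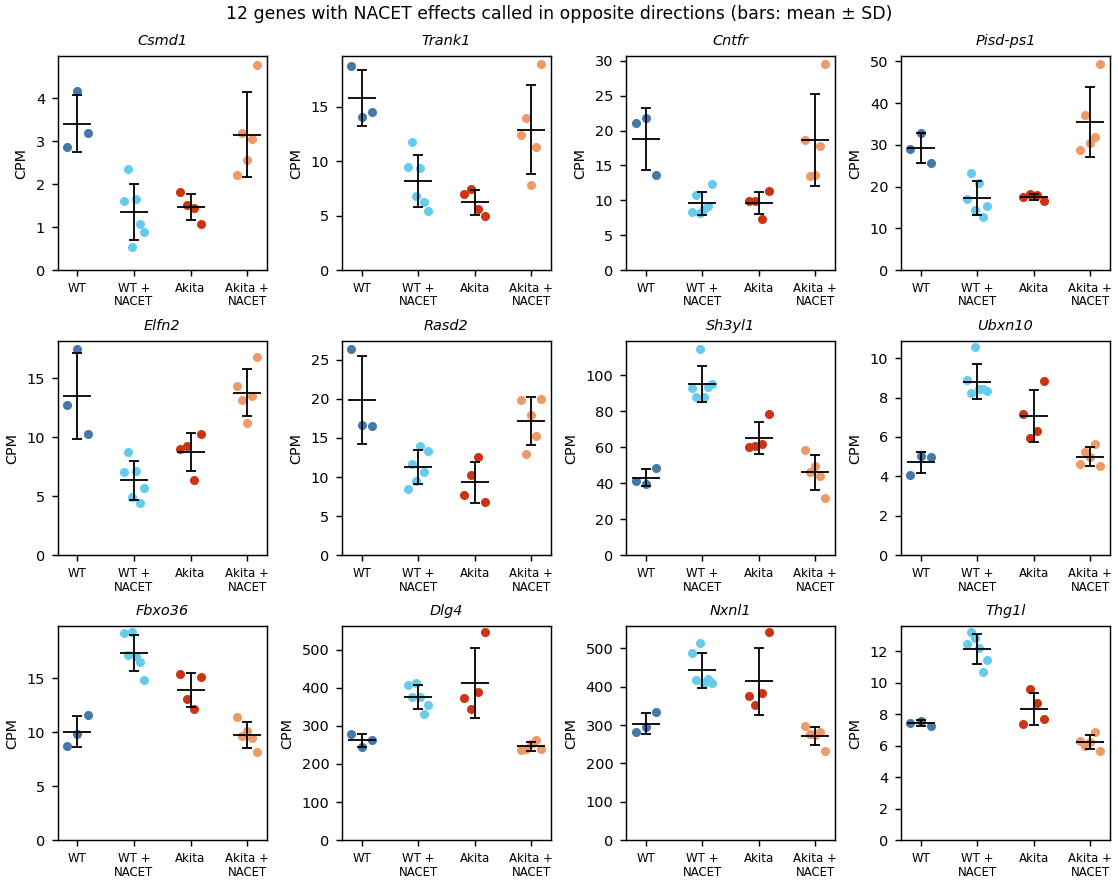
CPM of the 12 genes in each library of WT, WT + NACET, Akita and Akita + NACET, with bars for mean ± SD. In the first 6 the treated libraries are lower in WT and higher in Akita, in the last 6 the reverse; genes were chosen to show no overlap between treated and untreated libraries of a genotype.

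Rod phototransduction genes had lower levels with NACET in Akita at the median, and small positive estimates in WT. The calls within Akita, here and in the lists below, depend on single libraries. Over all tested genes they numbered 1 without Akita library 4 and 101 without Akita + NACET library 5. Of 28 tested members, 18 had a negative interaction and 0 a positive one, with a median of -0.65 against 0.0042 over all genes, and 15 were lower with NACET in Akita (median -0.44) while 0 passed the test in WT (median 0.24; 6 at an unadjusted p under 0.05 with edgeR, and 0 by DESeq2 and 2 by limma-voom after adjustment). Members called lie along the cascade: the transducin subunits Gnat1 (-0.91) and Gnb1 (-0.87), the phosphodiesterase subunits Pde6a (-0.84), Pde6b (-0.57) and Pde6g (-1.10), and the channel subunits Cnga1 (-0.66) and Cngb1 (-0.77), all as log2 interactions. Arrestin (Sag, -0.60) and the disc rim proteins Prph2 (-0.66) and Rom1 (-0.71) belonged to the same class. Grk1, Guca1a, Rgs9, Abca4 and Nr2e3 were among the 10 that did not pass, with values from -0.56 for Abca4 to -0.11 for Rgs9.

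Nrl, the transcription factor that commits photoreceptors to the rod fate, measured 1813, 1819 and 2348 CPM in WT, 2564, 2448, 3084 and 3578 in Akita and 2057, 2118, 2358, 2278 and 1565 in Akita + NACET. It ranged from 2381 to 3136 with a median of 2587 in WT + NACET. Its libraries did not overlap in either genotype (interaction -0.90 ± 0.20, adjusted p = 0.0057), though the effect in WT did not pass (log2 0.41, adjusted p = 0.13). Recoverin (Rcvrn), a calcium sensor of the cascade that overlaps Glp2r on the other strand, had 1755 ± 226 CPM in WT, 2155 ± 254 in WT + NACET, 2447 ± 721 in Akita and 1396 ± 256 in Akita + NACET, and an interaction of -1.11 ± 0.24 (adjusted p = 0.0058). In bulk tissue, fewer rods and less rod RNA per cell cannot be told apart.

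The sequence CTAATCC, bound by the photoreceptor factor CRX, was searched on both strands in the 300 bases around the annotated gene start (250 before, 50 after, mm9). It was found for 4 of 28 rod genes (14.3%), 0 of 14 cone genes, 0 of 17 ionotropic glutamate receptor genes and 335 of 15894 tested genes (2.11%). Windows of 27 bases are shown for Rcvrn, Guca1a and Gucy2f to place the match in rod genes with and without a call, with the matching letters in capitals (the reverse complement for Guca1a) and each sequence in the direction of its gene.
Rcvrn: caaatcccccCTAATCCatcagcacct
Guca1a: tgttaagaagGGATTAGcagactgcaa
Gucy2f: actctaaatcCTAATCCaggtcttggt
The first matching base is at -16 from the gene start in Rcvrn, -79 in Guca1a and -65 in Gucy2f. They lie, in mm9, for Rcvrn at chr11:67508802-67508828 (plus strand), for Guca1a at chr17:47537596-47537622 (minus strand) and for Gucy2f at chrX:138631523-138631549 (minus strand). Of these genes, Rcvrn and Gucy2f (-0.78) had a negative interaction and Guca1a (-0.29) did not pass.

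Cone genes moved the same way in fewer members. Of 14 tested, 5 had a negative interaction (median -0.46): the transducin subunits Gnat2 (-0.90), Gnb3 (-0.53) and Gngt2 (-0.84 ± 0.15, adjusted p = 0.0024) and the phosphodiesterase subunits Pde6c (-0.79 ± 0.16, adjusted p = 0.0044) and Pde6h (-0.77). Gngt2 measured 105 ± 4.17 CPM in WT, 126 ± 12.5 in WT + NACET, 124 ± 8.37 in Akita and 82.9 ± 13.2 in Akita + NACET. The cone opsins Opn1sw (-0.85) and Opn1mw (-0.38) and cone arrestin Arr3 (0.30) did not pass. Genes of the photoreceptor cilium and its transport trains, which carry these proteins to the outer segment, gave 13 negative and 2 positive interactions among 42 (median -0.29, and 0.02 on total counts), with the dynein-2 subunit Dync2li1 (-0.99 ± 0.18, adjusted p = 0.0026) called in both genotypes in opposite directions. Rpgr (0.73) and Rpgrip1 (0.80) were the 2 positive members, and the negative count was 8 and 7 without WT libraries 1 and 2.

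The mean log2 level of the rod list, centred on the mean of the 4 groups, was -0.27 to 0.07 across WT libraries, -0.07 to 0.23 in WT + NACET, 0.11 to 0.59 in Akita and -0.41 to -0.06 in Akita + NACET. All Akita libraries were above all Akita + NACET libraries, the highest being Akita library 4, whereas WT and WT + NACET overlapped. With single libraries left out, between 10 and 19 rod genes had a negative interaction, the lowest counts being 10 without WT library 2 and 11 without WT library 1. With the outside-exon share as a covariate, 0 rod genes were called and the median was -0.37, and for cone genes -0.36. With the trend on exon length removed, the rod count was 22 and the median -0.73.

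Nuclear genes of the mitochondrial respiratory chain followed the rods. Of 37 complex I subunits, 22 had a negative interaction and 0 a positive one (median -0.46), and 36 had estimates down in Akita and up in WT. For complexes II to V the figures were 28 of 45 (median -0.49), with 41 of that sign pattern. With NACET, 10 and 13 of them were lower in Akita (medians -0.29 and -0.28), calls that likewise depend on Akita library 4. In WT 0 passed (medians 0.18 and 0.20; 13 and 12 at an unadjusted p under 0.05 with edgeR, and 0 after adjustment by DESeq2 and limma-voom). Ndufv3, an accessory subunit of complex I, measured 136, 157 and 139.8 CPM in WT, 197, 179, 180.0 and 187 in Akita and 147, 136, 153, 140.1 and 115 in Akita + NACET. The WT + NACET libraries ranged from 153 to 200.5 with a median of 169. Every Akita library lay above every Akita + NACET library, while the WT groups overlapped in part.

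The interactions of Ndufv3 (-0.68 ± 0.14, adjusted p = 0.0039), Atp5g1, a c-ring subunit of ATP synthase (-0.75 ± 0.17, adjusted p = 0.0063), and Uqcrb of complex III (-0.68 ± 0.15, adjusted p = 0.007) were alike in size. Succinate dehydrogenase gave Sdhb (-0.41), Sdhc (-0.62) and Sdhd (-0.58) as called and Sdha (-0.38) as not. Atp5g2 (1.48) was the highest estimate in these lists and did not pass. Among the 8 tested genes of the mitochondrial genome itself, 2 had a negative interaction (median -0.30), with 0 without WT library 1 or 2 and 4 without Akita library 4. The complex I count ran from 8 to 27 with single libraries left out and that of complexes II to V from 12 to 29. They were 10 and 12 without WT library 1, and 8 and 13 without WT library 2. Both were 0 with the outside-exon share as a covariate, where the medians were -0.05 and -0.04, and 13 and 19 with the exon length trend removed. On total counts, negative calls over all tested genes numbered 390, against 1649 on the TMM scale. The negative counts of the rod and respiratory chain lists are thus relative to the TMM scale.

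Receptors and channels of inner retinal neurons had the opposite interaction. Ionotropic glutamate receptors, which carry fast excitation, showed the highest share of all lists with over 10 tested members: 14 of 17 had a positive interaction and 0 a negative one, with a median of 1.14. Of these receptors, 9 rose with NACET in Akita (median 0.65), calls that likewise depend on Akita library 4. In WT 0 passed (median -0.37; 8 lower at an unadjusted p under 0.05 with edgeR, and 2 by DESeq2 and 1 by limma-voom after adjustment). The AMPA receptor subunit Gria2, which sets calcium permeability, measured 107, 89.5 and 85.4 CPM in WT, 45.3, 51.4, 48.7 and 44.01 in Akita and 83.4, 88.1, 72.4, 79.2 and 114 in Akita + NACET. Levels in WT + NACET ranged from 47.3 to 81.1 with a median of 59.3. Treated and untreated libraries did not overlap in either genotype (interaction 1.48 ± 0.21, adjusted p = 0.00072), with WT at adjusted p = 0.054. The kainate receptor subunit Grik2 had 1.55 ± 0.26 (adjusted p = 0.0018), and both genes overlap another annotated transcript on their strand. Among NMDA receptor subunits, Grin1 (0.92), Grin2a (1.64), Grin2b (1.43) and Grin2c (2.45) were called, and Grin2d (-0.37) was not.

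Of 8 metabotropic glutamate receptors, 4 had a positive interaction (median 0.88), with Grm7 (0.99 ± 0.20, adjusted p = 0.0039) and Grm4 (1.25 ± 0.31, adjusted p = 0.011) both presynaptic receptors of group III. Grm6, the receptor of ON bipolar cells, did not pass (0.70). GABA and glycine receptors, which carry inhibition from amacrine and horizontal cells, gave 13 positive and 0 negative of 22 (median 0.79). Gabra2 had a negative estimate that did not pass (-0.74, adjusted p = 0.075). It rose with NACET in WT (log2 1.10, adjusted p = 0.012) and did not pass in Akita (log2 0.35, adjusted p = 0.26). Gabrg3 (1.35 ± 0.25, adjusted p = 0.0027) fell with NACET in WT (log2 -0.89, adjusted p = 0.013) and did not pass in Akita (log2 0.46, adjusted p = 0.092), and the glycine receptor subunit Glra1 had 1.91.

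Voltage-gated potassium channels, which shape repolarisation, gave 14 positive and 0 negative of 27 (median 0.83). Kcnd3 measured 17.6 ± 3.404 CPM in WT, 12.6 ± 3.23 in WT + NACET, 9.91 ± 0.873 in Akita and 18.6 ± 3.74 in Akita + NACET (interaction 1.39 ± 0.26, adjusted p = 0.0027). Sodium, calcium and HCN channels gave 15 positive and 1 negative of 32 (median 0.85), led by the calcium channel subunit Cacna2d1 (1.13 ± 0.18, adjusted p = 0.0018) and the pacemaker channel Hcn3 (1.80 ± 0.31, adjusted p = 0.0019, overlapping Pklr on the other strand). The negative one was Cacna2d4 (-0.54), the calcium channel subunit of photoreceptor terminals, and Cacna1f (-0.06), the pore subunit of those terminals, did not pass.

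The centred level of the ionotropic glutamate receptor list was 0.07 to 0.48 in WT, -0.49 to 0.11 in WT + NACET, -0.57 to -0.26 in Akita and 0.04 to 0.41 in Akita + NACET. As with rods, Akita and Akita + NACET did not overlap, and WT and WT + NACET did. Left-out libraries gave 8 (without WT library 1) to 14 called receptors. GABA and glycine receptors gave 8 positive calls without WT library 1 or 2, and sodium, calcium and HCN channels 8 and 9. With the outside-exon share as a covariate, 0 genes of the receptor and channel lists were called, and the medians were 0.45 for ionotropic glutamate, 0.28 for metabotropic glutamate and 0.50 for GABA and glycine receptors, 0.53 for potassium channels and 0.40 for sodium, calcium and HCN channels. They kept their sign there, at smaller size. With the exon length trend removed, positive calls over all genes in that fit numbered 1152, against 1640. The ionotropic glutamate median in that fit is given with exon length below.

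**Figure D3:**
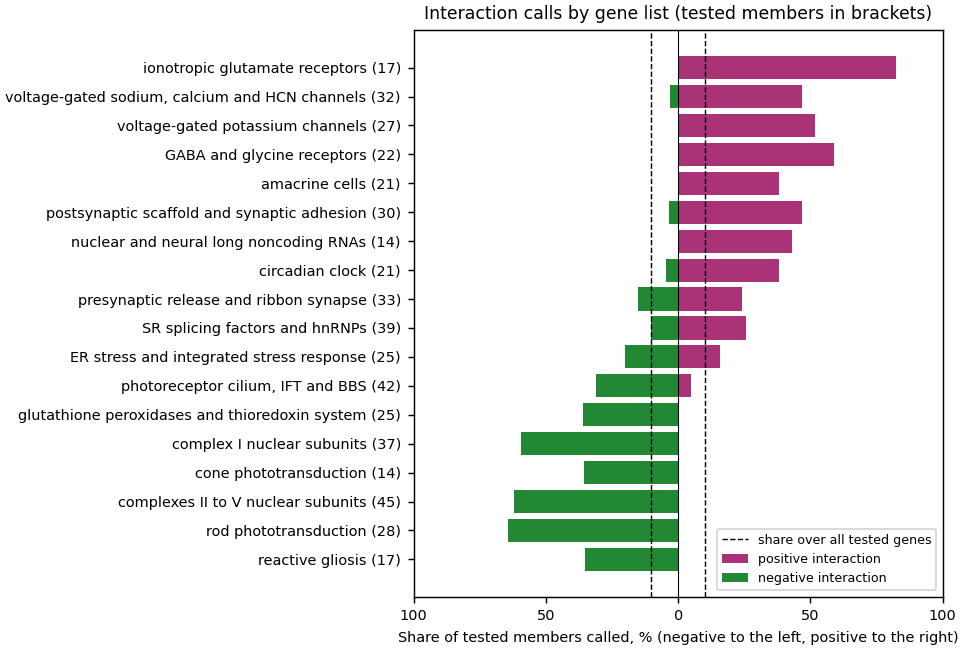
Share of the tested members of each gene list with a negative (left) or positive (right) interaction, for the lists in which at least 1 in 3 members was called and 10 or more were tested. Dashed lines mark the shares over all tested genes (10.2% and 10.1%), and the lists of rods and respiratory chain extend to the left and those of receptors and channels to the right.

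**Figure D4:**
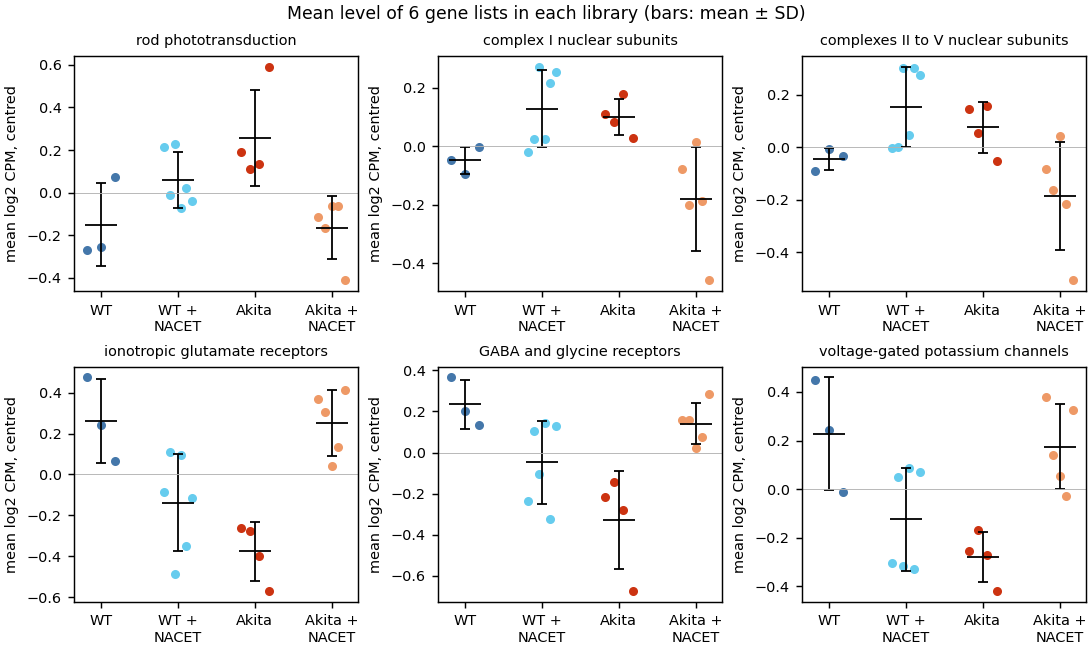
Mean log2 CPM of 6 lists in each library, centred on the mean of the 4 groups, with bars for mean ± SD. On average the rod and respiratory chain lists are higher in Akita than in Akita + NACET (with overlap for complexes II to V) and the receptor and channel lists lower, and WT and WT + NACET overlap in most panels.

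Synaptic genes had interactions of both signs. Postsynaptic scaffolds and adhesion proteins gave 14 positive and 1 negative of 30 (median 0.63), among them the neurexin Nrxn3 (1.54) and the adhesion protein Lrrtm2 (1.13 ± 0.21, adjusted p = 0.0026), and Dlg4 was the negative one. Without WT library 1 the positive count was 6. Presynaptic genes gave 8 positive and 5 negative of 33 (median 0.19). Positive were Syn1 (0.72), Syn2 (1.32 ± 0.29, adjusted p = 0.0065), the GABA transporter of vesicles Slc32a1 (0.70), the active zone proteins Bsn (1.03), Pclo (0.66), Unc13a (0.81) and Erc1 (0.70), and Sv2a (0.52). Negative were Sv2b (-0.59 ± 0.15, adjusted p = 0.013), Stx3 (-0.68), Cplx4 (-0.68), Ctbp2 (-0.54) and Slc17a7 (-0.73). Ribbon synapses of photoreceptors are known to use members of either sign, such as Bsn and Pclo among the positive and Ctbp2 and Cplx4 among the negative. The presynaptic positive count was 1 without WT library 1 or 2, 2 without Akita + NACET library 5, 3 to 5 without Akita libraries 1 and 3, Akita + NACET libraries 1 and 2, and WT + NACET libraries 3 and 5, and the negative count was 1 without WT library 1 or 2. Of 21 amacrine cell markers 8 were positive and 0 negative (median 0.64), with Pax6 at 0.62 ± 0.16 (adjusted p = 0.015), which stood at 0.08 and out of the calls with the exon length trend removed. The amacrine count was 1 without WT library 1, 3 without Akita + NACET library 5, 4 without WT library 2, and 5 without Akita library 3 or 4, Akita + NACET library 2, or WT + NACET library 3 or 5.

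Long noncoding RNAs of the nucleus and of neurons gave 6 positive and 0 negative of 14 (median 0.51). Meg3, an imprinted RNA, measured 293, 230.0 and 206 CPM in WT, 71.7, 84.02, 70.6 and 65.6 in Akita and 203, 241, 143, 187 and 256 in Akita + NACET. In WT + NACET it ranged from 90.6 to 239.8 with a median of 129. Akita and Akita + NACET did not overlap (log2 1.497, adjusted p = 0.016), WT and WT + NACET did, and the interaction was 2.25 ± 0.38 (adjusted p = 0.0025). Its neighbour Mirg, which hosts microRNAs that overlap it on the same strand, had 2.37 ± 0.41 (adjusted p = 0.0021), and Malat1, which is retained in the nucleus, 1.58. Splicing factors gave 10 positive and 4 negative of 39 (median 0.17), against 10.1% positive and 10.2% negative over all tested genes. Their negative share was thus near that of all genes. The SR proteins Srsf1 (1.19 ± 0.25, adjusted p = 0.0052) and Srsf2 (1.27 ± 0.28, adjusted p = 0.0071) were positive and Hnrnpk (-0.50) negative. With the outside-exon covariate these 2 medians were 0.27 and -0.02. The splicing factor counts were 5 positive without Akita library 3, and 6 positive and 0 negative without WT library 2.

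Clock genes gave 8 positive and 1 negative of 21 (median 0.41, and 0.04 with the outside-exon covariate), with 4 positive without WT library 2 and 5 without Akita + NACET library 5 or WT + NACET library 3. The repressors Per1 (0.80), Per2 (1.05), Per3 (1.27) and Cry2 (0.51 ± 0.12, adjusted p = 0.0076) and the output factor Tef (0.72 ± 0.16, adjusted p = 0.0067) were positive. The activators Arntl (-0.14) and Clock (0.01) did not pass, nor did the repressors Cry1 (0.05), Nr1d1 (0.22) and Nr1d2 (-0.09). The negative one was Rora (-0.60). The hour of tissue collection is not given in the sources used here. Immediate early genes, which also depend on how the tissue was handled, gave 6 positive and 0 negative of 26 (median 0.48, and 3 positive without WT library 1), with Klf2 at 3.44 and Dusp1 at 1.14, whereas Fos (0.76) and Egr1 (-0.14) did not pass. Their centred level was -0.80 to -0.20 in WT + NACET, below all WT libraries (0.18 to 0.28), and -0.37 to 0.34 in Akita, which overlapped Akita + NACET (-0.08 to 0.36).

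Classic target genes of NRF2 had a negative interaction in 12.1% of tested members, near the 10.2% of all tested genes, and a positive one in 0. Nfe2l2, which encodes NRF2, measured 26.5, 27.02 and 24.99 CPM in WT, 33.8, 31.9, 36.2 and 43.2 in Akita and 35.7, 26.6, 27.4, 25.7 and 27.1 in Akita + NACET. It ranged from 27.1 to 32.5 with a median of 30.2 in WT + NACET. The groups overlapped in Akita, where it was lower with NACET (log2 -0.35, adjusted p = 0.041), and the interaction was -0.55 ± 0.15 (adjusted p = 0.018), lost on total counts (-0.24, adjusted p = 0.19). Of its regulators and partners, the small MAF genes Maff and Mafg were the 2 with a positive interaction, with 1 without Akita library 3 or WT library 2 and 0 without WT library 1. Keap1, its inhibitor, had 51.6 ± 4.11 CPM in WT, 54.1 ± 2.05 in WT + NACET, 57.3 ± 5.37 in Akita and 55.1 ± 4.997 in Akita + NACET and an interaction of -0.12 ± 0.12 (adjusted p = 0.48), an estimate that turned to 0.18 on total counts and 0.0040 with the outside-exon covariate. Of 33 classic targets, 4 were negative and 0 positive (median -0.31, but 0.01 on total counts and -0.10 with the outside-exon covariate): thioredoxin Txn1 (-0.67), Gstp1 (-0.66) and the pentose phosphate enzymes Pgd (-0.44) and Taldo1 (-0.57). Nqo1 (-0.38), Hmox1 (-0.77), Gclc (0.28), Gclm (-0.01), Srxn1 (0.14), Txnrd1 (-0.21) and Slc7a11 (-1.92) did not pass. With NACET 0 of the 33 rose in Akita and 0 in WT with edgeR (1 and 3 at an unadjusted p under 0.05, 0 and 0 by DESeq2, 1 and 0 by limma-voom), and 6 fell in Akita. The core of the antioxidant response element, TGACNNNGC, lay within the same 300 bases around the start of 7 of the 33 (21.2%) and of 2129 of 15894 tested genes (13.4%).

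Other antioxidant genes (glutathione peroxidases, glutaredoxins, the thioredoxin system, superoxide dismutases, catalase and metallothioneins) gave 9 negative and 0 positive of 25 (median -0.34, -0.04 on total counts, -0.16 with the outside-exon covariate). The negative ones were glutathione peroxidases Gpx1 (-0.63) and Gpx4 (-0.75), the glutaredoxins Glrx (-0.57) and Glrx2, the mitochondrial enzymes Txn2 (-0.34), Prdx3 (-0.62) and Sod2 (-0.55), Prdx4 (-0.64) and catalase. Catalase (Cat) measured 32.7, 31.3 and 29.6 CPM in WT and ranged from 42.1 to 47.6 with a median of 45.9 in WT + NACET, without overlap (log2 0.54, adjusted p = 0.0048). In Akita it measured 35.2, 36.2, 32.7 and 27.1 CPM and in Akita + NACET 33.8, 30.6, 29.7, 28.8 and 27.2 CPM, which overlapped (log2 -0.13, adjusted p = 0.34). Its interaction (-0.67 ± 0.13, adjusted p = 0.0031) did not pass on total counts (-0.38, adjusted p = 0.089). Glrx2, the mitochondrial glutaredoxin, had 108 ± 10.6 CPM in WT, 135 ± 7.73 in WT + NACET, 134 ± 12.5 in Akita and 108 ± 7.95 in Akita + NACET (interaction -0.63 ± 0.12, adjusted p = 0.0027).

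Genes of the endoplasmic reticulum stress response went both ways, 4 positive and 5 negative of 25 (median 0.02). Xbp1, a transcription factor of that response, had 0.67 ± 0.17 (adjusted p = 0.011), and Pdia4, a folding enzyme, -0.54 ± 0.12 (adjusted p = 0.0077; on total counts -0.23, adjusted p = 0.062). Atf3 (1.35), Trib3 (0.998) and Herpud1 (0.76) were positive with Xbp1, and the chaperones Hsp90b1 (-0.52), Canx (-0.37) and Pdia3 (-0.48) negative with Pdia4 and Atf6 (-0.54). Without WT library 2 the counts were 1 and 2, and the positive count was 2 without Akita library 1 or WT library 3.

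Genes of reactive gliosis, the response of Müller glia to injury, had a negative interaction with higher levels in WT + NACET. Of 17 tested, 6 were negative and 0 positive (median -0.90): 5 members were called up with NACET in WT (median 0.70), and 0 in either direction in Akita with edgeR (median -0.11; 1 up at an unadjusted p under 0.05, 1 up by DESeq2 and 0 by limma-voom). Without WT library 3 the count was 3. Steap4, a metalloreductase, measured 1.795, 1.68 and 0.723 CPM in WT and ranged from 1.99 to 10.3 with a median of 6.27 in WT + NACET, against 0.982, 1.04, 2.01 and 1.66 in Akita and 1.03, 1.47, 0.766, 0.8700 and 0.653 in Akita + NACET (interaction -2.71 ± 0.59, adjusted p = 0.0063, and 0.079 with limma-voom). Lcn2, which encodes lipocalin 2, had 4.36 ± 1.21 CPM in WT, 8.68 ± 1.93 in WT + NACET, 8.58 ± 1.26 in Akita and 7.25 ± 1.82 in Akita + NACET (interaction -1.24 ± 0.31, adjusted p = 0.012), and Gfap, the intermediate filament of reactive glia, -2.11. The centred list level was 0.17 to 1.01 in WT + NACET, above the highest library of the other groups, 0.12. It kept a median of -1.05 with the outside-exon covariate, with 0 members called. Müller glia identity genes gave 2 positive and 0 negative of 18 (median 0.028). The positive share, 11.1%, was near the 10.1% over all tested genes, with 1 positive without Akita library 3 and 0 without WT library 2.

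Genes of other tissues and cells varied between libraries. The 22 pigment epithelium genes summed to 2987 to 3835 CPM in WT + NACET and 1315 to 2855 CPM in the other 3 groups. They had 1 positive and 2 negative interactions, shares below the 10.1% and 10.2% of all tested genes. Rpe65, Rgr, Lrat, Rdh5 and Ttr had higher estimates with NACET in both genotypes, not called in either. These were 1.69 to 2.16 in Akita and 1.35 to 1.92 in WT, with interactions of 0.02 to 0.47. Rdh9, Tyrp1, Mitf, Otx2, Cst3, Krt18, Slc6a13 and Mlana had a negative estimate in at least 1 genotype. Of 19 tested lens genes 0 were called with edgeR (5 lower at an unadjusted p under 0.05, 0 by DESeq2 and limma-voom), with a median of -9.02 that turned to 1.74 without the 3 lens-rich libraries. Leaving these out gave 2702 interactions (1311 positive, 1391 negative), and the rod, complex I and ionotropic glutamate counts were then 17, 24 and 11. Microglia genes had 0 positive and 1 negative of 18 (median -0.78), a negative share below the 10.2% of all tested genes. The negative count was 5 without Akita library 4, 3 without Akita + NACET library 3, and 2 without WT library 2 or WT + NACET library 2. Endothelial genes had 3 positive of 21 (14.3%, against 10.1% of all tested genes; median 1.26), among them Cldn5, the tight junction protein of the blood-retinal barrier (2.83). That count was 8 without WT library 3 or WT + NACET library 4, 6 without Akita library 2 and 5 without Akita + NACET library 3. Of the red cell list, Alas2 (1.90 ± 0.58, adjusted p = 0.027) was called positive and Bpgm (-0.78 ± 0.16, adjusted p = 0.0042) negative. The globins Hba-a1 (1.07), Hba-a2 (0.71), Hbb-b1 (0.38) and Hbb-b2 (1.54) had positive interactions that did not pass. Their NACET effects were 1.34 to 2.18 in Akita, where Hbb-b2 was called (adjusted p = 0.02), and 0.46 to 1.05 in WT, not called. The interaction call of Alas2 was lost without Akita library 3, Akita + NACET library 2 or WT library 2.

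The 3 smallest p-values of the whole test belonged to Acp1, Wdfy1 and Tmem181b-ps, in which WT + NACET stood apart from the other 3 groups. Wdfy1 (mm9 chromosome 1, 79698837 to 79772718, minus strand), an adaptor of Toll-like receptors, measured 15.4, 12.8 and 15.5 CPM in WT, 12.4, 15.3, 15.3 and 13.7 in Akita and 15.4, 16.03, 16.8, 14.8 and 16.98 in Akita + NACET. In WT + NACET it ranged from 88.97 to 103 with a median of 94.6. Its interaction was -2.53 ± 0.13 (adjusted p = 5.9e-11), with no call in Akita (log2 0.18, adjusted p = 0.19). Fn3krp, a kinase that removes sugar from proteins, had 6.47 ± 0.152 CPM in WT, 53.4 ± 16.7 in WT + NACET, 6.86 ± 1.01 in Akita and 6.65 ± 0.987 in Akita + NACET (interaction -3.09 ± 0.33, adjusted p = 3.5e-05).

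In the opposite direction, Acp1 (mm9 chromosome 12, 31578191 to 31596477, minus strand), a low molecular weight phosphatase, ranged from 2.05 to 3.14 with a median of 2.25 CPM in WT + NACET, against 40.1, 26.7 and 32.8 in WT, 33.5, 37.00, 38.5 and 37.9 in Akita and 35.3, 30.9, 34.4, 34.4 and 28.3 in Akita + NACET (interaction 3.57 ± 0.18, adjusted p = 5.9e-11). It is the next gene to Sh3yl1, on the other strand, whose level was highest in the same 6 libraries. The pseudogene Tmem181b-ps, whose reads may be shared with related copies, was at 0.553 ± 0.0437 CPM in WT + NACET and 5.72 ± 0.417 in WT (interaction 3.96 ± 0.27, adjusted p = 6.0e-09). It is also 1 of the 63 genes called in opposite directions, with 4.09 ± 0.324 CPM in Akita and 6.25 ± 1.54 in Akita + NACET, which overlapped (log2 0.61, adjusted p = 0.033). These 4 genes and Thg1l were the 5 of 52 named genes with a called interaction that kept it with the outside-exon share as a covariate. The 47 others kept their sign, at 22.7% to 122% of the size without it (median 63.1%), while the SE of the 52 went to a median of 132% of its size. Among them, 12 kept at least 75% of their size, such as Rasd2 (1.68), Fbxo36 (-1.23), Dlg4 (-1.15), Cat (-0.75) and Steap4 (-3.05), and 13 less than 50%, such as Nrl (-0.36), Ndufv3 (-0.28) and Uqcrb (-0.20). A lost call therefore does not show that the difference is absent.

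Wdfy1, Nnt and Crb1 are among 5 listed genes in which C57BL/6 substrains are known to differ. The others, Entpd4 (0.44, adjusted p = 0.021) and Cyfip2 (0.23, adjusted p = 0.23), had positive interactions, of which that of Entpd4 was called. Entpd4 was lower with NACET in WT (log2 -0.39, adjusted p = 0.033), and its interaction call was lost without WT library 1 or 2. Nnt, which encodes the mitochondrial transhydrogenase that supplies NADPH and is deleted in part in C57BL/6J, measured 13.1, 14.8 and 8.61 CPM in WT, 10.2, 8.92, 13.6 and 7.05 in Akita, 9.23, 11.6, 10.8, 10.7 and 9.93 in Akita + NACET, and from 16.3 to 23.8 with a median of 19.9 in WT + NACET. Every WT + NACET library was above every other library, and the interaction did not pass (-0.63 ± 0.25, adjusted p = 0.075). Crb1, a polarity protein of photoreceptors and Müller glia, had -1.07 ± 0.22 (adjusted p = 0.0044), with 427 ± 66.1 CPM in WT, 609 ± 64.99 in WT + NACET, 622 ± 178 in Akita and 422 ± 44.3 in Akita + NACET. Treatment of WT mice and any other difference of the WT + NACET animals cannot be told apart in these genes, nor in the WT side of the other interactions.

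Across all genes the interaction varied with annotated exon length, whose part in the results above was not tested beyond the fit that removes it. In the 10% of genes with the shortest annotated exons (53 to 1044 bases), 4.28% had a positive and 16.2% a negative interaction, with a median of -0.28. In the 10% with the longest (7900 bases and more), the shares were 22.5% and 3.65%, with a median of 0.28, and the median was higher in each of the 10 length classes than in the one before it. Annotated pseudogenes were more often negative (17.4% against 2.83% positive), and processed transcripts more often positive (18.2% against 5.45%). The median exon length was 6270 bases in the ionotropic glutamate receptor list, 3439.5 in the rod list and 1282 in the complex I list. With each library's trend on exon length removed, 2982 of 15896 genes were called, 1152 positive and 1830 negative, and the medians of these 3 lists were 0.71, -0.73 and -0.30.

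**Figure D5:**
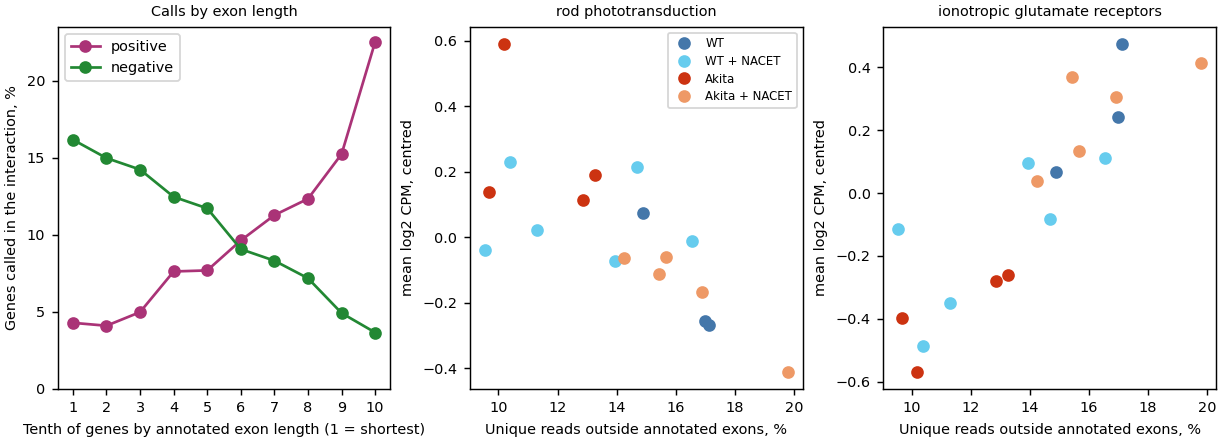
Left, share of genes with a positive or negative interaction in 10 classes of annotated exon length. Middle and right, centred mean log2 CPM of the rod and ionotropic glutamate receptor lists in each library against its share of unique reads outside exons, which runs from 9.55% to 19.8%. The 4 Akita libraries lie at lower shares than the 5 Akita + NACET libraries, with higher rod and lower receptor levels.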

How the data were processed

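RNA-seq of poly(A) RNA from retina (TruSeq RNA v2) was analysed in 18 libraries, with the genotype and treatment of each read from its title. Per the labels, the authors aligned reads to mm9 with TopHat2 2.1.0 and Bowtie and counted them with HTSeq 0.11.2, and the deposited files hold these raw counts per gene name, not normalised. The kit does not mark strand, so overlapping genes on opposite strands cannot be told apart. Rows of the counter's summary were set aside, and used only for the share of reads outside exons. The unnamed row (mean 0.00544% of counts) and 206 rRNA genes (mean 0.977%) were removed, leaving 34800 of 35006 gene names, of which 8 are not reported here. Of all names, 96.1% were found in the mm9 annotation used.

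Counts were tested with edgeR 4.0.16 in R 4.3.3 (TMM, filterByExpr, glmQLFit and glmQLFTest) in 1 fit of the 4 groups to all 18 libraries, with contrasts for NACET in Akita, NACET in WT and their difference, Benjamini-Hochberg adjustment over 16183 genes and a threshold of 0.05. The biological coefficient of variation was 0.186. Libraries held 11495596 to 17814479 counts, and replicates differed beyond sampling noise (chi-square per gene 4.82 to 55.0). In data simulated for the interaction over 16183 genes, 4%, 46%, 74% and 80% of 50 genes each were recovered at log2 changes of 0.5, 1, 1.5 and 2, with 6 false calls. No other genes were changed there, against 3289 called in the data, and genes were drawn independently, without a trend shared across a library. These rates therefore need not hold for the real libraries. Group permutation tests were exact and two-sided.

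Alternatives were DESeq2 1.42.0, limma-voom (limma 3.58.1) with quality weights, DESeq2 size factors, total counts, no filter, a mean count of at least 50, 1 surrogate variable (sva 3.50.0), the outside-exon share as a covariate, the replicate number as a block, rRNA genes kept and each library left out. Leaving out the 3 lens-rich libraries and removing the trend on exon length were chosen after seeing the data. Genes were named by rule: the 6 largest interactions in each direction among genes called oppositely in the 2 genotypes with no overlap and a mean of at least 1 CPM, the 2 smallest p-values in each list with at least 5 tested members of which 1 in 3 were called, the 2 smallest p-values in each direction, and Nnt, Wdfy1, Nfe2l2 and Keap1. Other list members were named after their values were seen. The gene lists and members were chosen with earlier results of these data known. Replicate numbers in the titles were not stated to pair animals, and libraries that share a number did not deviate together.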

Additional observations from a re-analysis of the deposited data

Results flagged for a closer look

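Single libraries stood away from the rest of their group in 20 of 237 groups of 4 to 10 libraries tested by the gap to the nearest neighbour (8.44%; chance gives about 1 in 20). Of these, 8 belonged to Akita library 4, in which the centred list levels were 0.59 for rods, 0.32 for cones, 0.34 for the cilium and 0.21 for splicing factors, and the levels were 78.5 CPM for Sh3yl1, 542 for Nxnl1, 3521 for Rcvrn and 152 for Glrx2. The clock list stood apart in Akita library 3, at -0.31. Akita + NACET library 5 was low for Dync2li1 (17.0 CPM) and apart for Srsf2 (379.7), and Akita + NACET library 1 was apart for Syn2 (56.0), Crb1 (499) and Nfe2l2 (35.7). WT + NACET library 3 was apart for Sh3yl1 (115) and Ubxn10 (10.5), and WT + NACET library 6 for Keap1 (57.9). Summed lens genes stood apart at 30085 CPM in WT + NACET library 5, 3521 in Akita library 2 and 1564 in Akita + NACET library 3.

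For 52 named genes the NACET effect differed between Akita and WT in the test of that difference (edgeR, adjusted p at most 0.05). The log2 interactions of genes called in opposite directions were Csmd1 2.42, Trank1 1.99, Cntfr 1.93, Pisd-ps1 1.77, Elfn2 1.75, Rasd2 1.69, Sh3yl1 -1.65, Ubxn10 -1.39, Fbxo36 -1.30, Dlg4 -1.26, Nxnl1 -1.15, Thg1l -1.13, Dync2li1 -0.99 and Tmem181b-ps 3.96. In photoreceptor genes they were Nrl -0.90, Rcvrn -1.11, Gngt2 -0.84, Pde6c -0.79 and Crb1 -1.07. Receptors and channels had Gria2 1.48, Grik2 1.55, Grm7 0.99, Grm4 1.25, Gabrg3 1.35, Kcnd3 1.39, Cacna2d1 1.13 and Hcn3 1.80, and genes of synapses and amacrine cells Syn2 1.32, Sv2b -0.59, Lrrtm2 1.13 and Pax6 0.62. Respiratory chain and redox genes had Ndufv3 -0.68, Atp5g1 -0.75, Uqcrb -0.68, Glrx2 -0.63, Cat -0.67 and Nfe2l2 -0.55. The rest were Pdia4 -0.54, Xbp1 0.67, Srsf1 1.19, Srsf2 1.27, Mirg 2.37, Meg3 2.25, Tef 0.72, Cry2 0.51, Steap4 -2.71, Lcn2 -1.24, Bpgm -0.78, Alas2 1.90, Wdfy1 -2.53, Acp1 3.57 and Fn3krp -3.09. With the outside-exon share as a covariate, 5 of the 52 were still called, and the other 47 kept their sign, 12 of them with at least 75% of their size.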

How the results depend on the processing

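The interaction count of 3289 stayed between 2550 and 4437 under DESeq2 (3790), limma-voom (3921), the other scalings, filters, the surrogate variable, the kept rRNA genes, the removed exon length trend and the left-out lens-rich libraries, and was 17 with the outside-exon share as a covariate and 1699 to 3524 with single libraries left out. The 63 genes called oppositely became 38 with a surrogate variable, 235 with DESeq2, 220 with limma-voom, 0 with the covariate, 13 without the lens-rich libraries, and 1 to 96 with single libraries left out. The 1562 genes changed in Akita became 2391 with DESeq2, 2572 with limma-voom, 1010 without a filter, 0 with the covariate, 2550 on total counts, and 1 to 1754 with single libraries left out. The 240 changed in WT became 717 with DESeq2, 533 with limma-voom, 61 with the covariate, 85 without the lens-rich libraries, and 72 to 461 with single libraries left out. Except where a setting tests fewer or more genes or uses fewer libraries, the cause was not tested. Of 54 named genes, Keap1 changed sign, to 0.0040 with the covariate and 0.18 on total counts.

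With the replicate number as a block, the counts were 2656 for the interaction (1347 positive, 1309 negative), 15 for genes called oppositely, 219 in Akita and 190 in WT. The block changed no call of a named gene. Over 22 pairs of libraries with the same number, the correlation of deviations ran from -0.33 to 0.34, 4 were above 0.1, and 4 libraries correlated best with their own number, so the numbers were not treated as pairing.

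Depth limits genes such as Steap4 and Csmd1 at a few CPM, and 3 WT libraries limit the WT side. In simulated data, where far fewer genes changed than were called here, 46% of interactions of log2 1 were recovered. That rate need not hold for these libraries, and an interaction that did not pass is not shown to be absent.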

Other observations

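Genes of protein synthesis and breakdown and of tissue patterning were counted against 10.1% positive and 10.2% negative interactions over all tested genes. Cytosolic ribosomal proteins gave 2 positive and 7 negative of 78 (median -0.37), mitochondrial ribosomal proteins 1 positive and 12 negative of 75 (median -0.24) and proteasome subunits 0 positive and 9 negative of 36 (median -0.32). Their negative shares were 8.97%, 16% and 25%, so the count of the cytosolic list was not above that over all genes. With the outside-exon share as a covariate, these medians turned to 0.12, 0.03 and 0.06, with 0 called, and without WT library 1 their negative counts were 1, 7 and 3, and without WT library 2 they were 1, 4 and 3. The ribosomal and proteasome counts also moved by more than 1.5 times without Akita library 3 (cytosolic 3, proteasome 4) and Akita + NACET library 3 (cytosolic 12, mitochondrial 23, proteasome 14), and the cytosolic one without Akita library 1 or WT + NACET library 5 (4 in each), and the proteasome one without WT + NACET library 3 (5). Semaphorins, plexins and ephrins with their receptors, which guide axons and vessels, gave 16 positive and 0 negative of 50 (median 0.61), and 6, 5 and 10 positive without WT libraries 1 and 2 and Akita + NACET library 5. Collagens, laminins and other basement membrane genes gave 9 positive and 1 negative of 49 (median 0.58), and 4 positive without WT library 2.

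The marker lists of other retinal neurons were short. There were 4 positive and 0 negative of 22 (median 0.55) among bipolar cell genes, 3 positive and 0 negative of 20 (median 0.32) among ganglion cell genes and 3 positive and 0 negative of 13 (median 0.39) among horizontal cell genes. The positive shares were 18.2%, 15% and 23.1%, against 10.1% over all tested genes, but on 3 or 4 genes each. The bipolar count was 2 without WT library 2. The ganglion cell count was 0 without Akita library 4, Akita + NACET library 5, WT library 1 or WT + NACET library 3, and 1 without Akita library 1 or 3, WT library 2, or WT + NACET library 1 or 2. With the outside-exon covariate 0 were called in each.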
